A study of Mus musculus with 6 samples.

Results

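The IL-6 family cytokines and receptors were followed in the murine lung cancer cell line 889, through 9 genes chosen by name: the ligands Il6, Lif, Il11 and Clcf1 and the receptor genes Il6ra, Il6st, Lifr, Osmr and Il11ra1. Each name matched 1 row in every count file, so 9 of the 34745 genes in the files were members. RNA was sequenced in 3 sgcontrol libraries, from cells with Cas9 and a control sgRNA (labelled control), and in 3 sgkiaa1522 libraries, from cells with Cas9 and kiaa1522 sgRNA (labelled KIAA1522-downregulated). All 6 libraries came from the same C57BL/6 lung line. Per the study's methods, Cas9 and sgRNA were delivered together by a lentiviral vector and the control sgRNA was against EGFP. The kiaa1522 sgRNA of the sequenced cells, and whether the replicates came from separate cultures or from 1 transduced pool, were not given in the sources used here, so the p-values measure the spread between these libraries, which may be technical.

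Cytokines of this family signal through gp130, the product of Il6st, which is shared by their receptor complexes. IL-6 and IL-11 first bind their own receptor chains, the products of Il6ra and Il11ra1, and then bring gp130 together with itself. LIF joins gp130 with the LIF receptor (Lifr), oncostatin M can join it with the oncostatin M receptor (Osmr), and CLCF1 acts through a complex of the CNTF receptor, gp130 and the LIF receptor. The receptors carry JAK kinases, which phosphorylate STAT3, and SOCS3 damps the signal. In lung epithelium and lung tumors the family is known for inflammatory and regenerative signaling.

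The libraries held between 12220001 and 18609376 counts, with the smallest total in sgkiaa1522 replicate 1. A floor of 3 counts, the upper limit that a count of 0 allows, corresponded to between 0.161 and 0.246 CPM (counts relative to the library total, scaled by TMM, the trimmed mean of M values) and covers counting error only. The targeted gene kiaa1522, listed as C77080, had a log2 fold change (sgkiaa1522/sgcontrol) of 0.73 (standard error, SE, of 0.0569, and adjusted p = 9.1e-05 in the quasi-likelihood, or QL, test of edgeR), so its mRNA was higher in the libraries labelled sgkiaa1522, and every direction given here is a direction for libraries so labelled. Of 18 lung epithelial marker genes, Epcam was listed at 0 in all libraries. Krt8, Krt18 and Krt19 lay at 1275, 2114 and 794 CPM on average in the sgcontrol libraries. Napsa, Hnf4a, Sftpa1, Hopx and Sftpd had at most 67 counts over all libraries. Of the 8 markers with more than 500 counts, 5 were lower (edgeR QL adjusted p of at most 0.05) and 3 not called. Cdh1 had a log2 fold change of -1.45 (edgeR QL adjusted p = 5.1e-05). Nkx2-1 was at 42.6 ± 25.2 and 19.9 ± 16.9 CPM (SD, n = 3) and was not called. The 18 genes summed to between 4032 and 4734 CPM in the sgcontrol libraries and between 3422 and 3637 in the libraries labelled sgkiaa1522. Most of each sum came from Krt8, Krt18 and Krt19. The 10 immune markers summed to between 1.40 and 2.91 CPM and to between 10.3 and 13.0 CPM, of which Cd68 made up 11.2 on average, with Adgre1, Cd3e and Lyz1 at 0. The 10 fibroblast and endothelial markers summed to between 466 and 485 CPM and to between 167 and 198 CPM, of which Col1a2 made up 422 and 153 on average. The part of these shifts in the members' values was not tested.

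The members differed widely in their counts. Clcf1, Lif and Il6st, the gene of gp130, had at least 324 counts in every library, Il6ra had between 49 and 100, and Il6, Il11, Il11ra1, Lifr and Osmr had no more than 30 in any library. Levels of different genes were compared as TPM, which divides counts by the summed exon length of a gene and scales each library to the same sum. Over all 6 libraries, TPM was 44.3 ± 11.9 for Clcf1, 29.0 ± 3.66 for Il6st and 16.1 ± 4.01 for Lif (SD, n = 6). It was 1.52 ± 0.396 for Il6ra, 1.09 ± 0.524 for Il11, 0.705 ± 0.359 for Il11ra1, 0.255 ± 0.180 for Il6 and 0.0374 ± 0.0499 for Lifr, and Osmr had no count. The lowest TPM of Il6st, 24.8, was above the highest of Lif, 21.6, and the lowest of Lif, 11.2, was above the highest of Il6ra, 1.80. Clcf1 and Il6st overlapped between libraries, and with the mean transcript length in place of the summed exons their order was turned, at 52.1 and 58.0 TPM. Il6ra, Il11 and Il11ra1 overlapped each other too, as did Il6 with Il11ra1 and with Lifr, so the order of these neighbours was not larger than the spread between libraries.

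**Figure D1:**
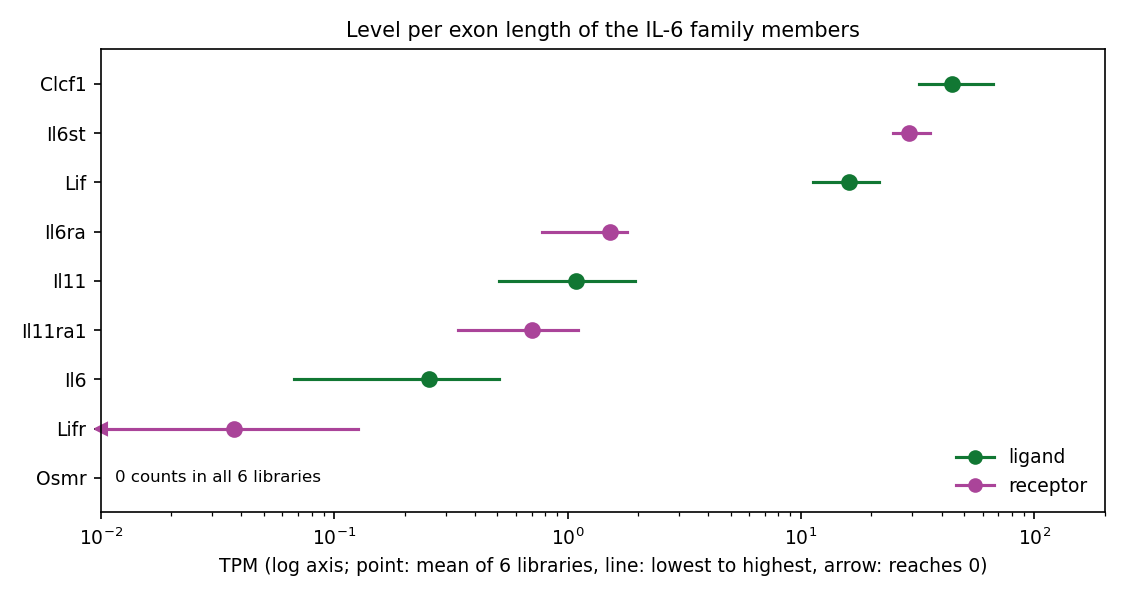
TPM of the 9 members on a log axis, with the mean of the 6 libraries as a point and the lowest to highest library as a line, ligands and receptors in different colors. Clcf1, Il6st and Lif stand apart from the other members, Lifr reaches 0 in some libraries, and Osmr is marked as 0 counts in all 6.

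Of the 8 members with a test, 2 were higher in the libraries labelled sgkiaa1522 and none was lower, namely the ligand gene Lif and the receptor gene Il11ra1. Only 3 members, Clcf1, Lif and Il6st, had more than 500 counts over the 6 libraries, the filter of the study. Of these 3, Lif was called at an adjusted p of at most 0.05, where 26.3% of the 10046 genes tested with this filter were higher and 26.3% lower (52.5% in either direction). The other 5 with at least 10 counts were tested in a second fit over 14301 genes, and Il11ra1 was called, where 22.3% of the genes were higher and 22.4% lower (44.6% in either direction). No member past the study's filter reached a log2 fold change of 1 in size, as 2.74% of the 10046 genes did in the higher direction and 4.34% in the lower. In the second fit, Il11ra1 passed this added limit, as 5.53% of its genes did in the higher direction and 6.61% in the lower. RNA per cell and the share of expressing cells cannot be told apart in these bulk libraries.

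**Figure D2:**
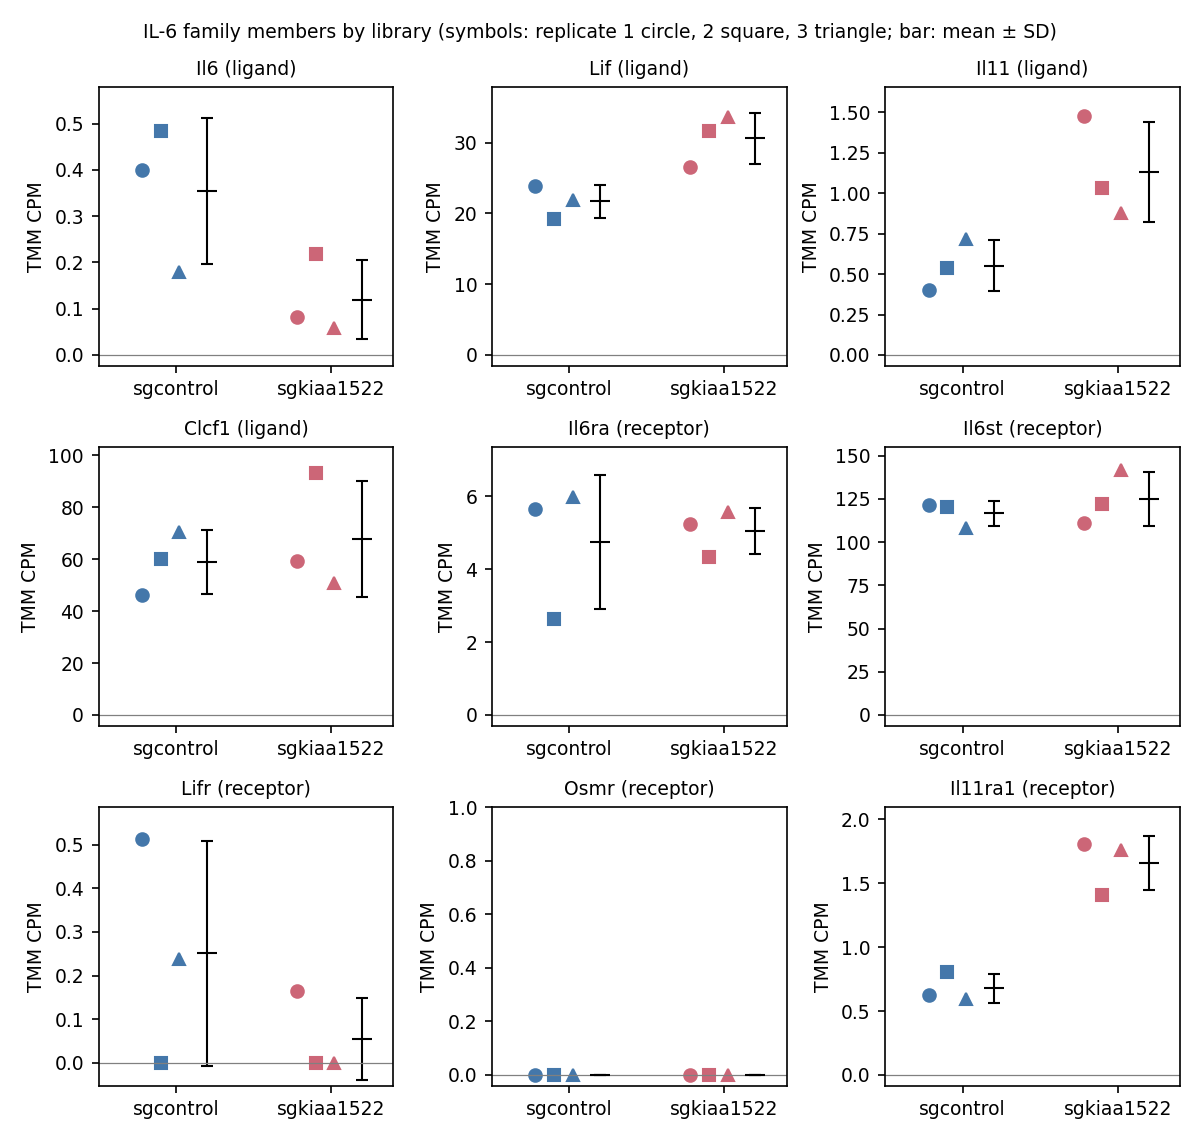
TMM-normalized CPM of each member in the 3 sgcontrol libraries and the 3 libraries labelled sgkiaa1522, with symbols for the replicate numbers and bars for the mean ± SD. The groups are apart for Lif, Il11 and Il11ra1 and overlap for Il6, Clcf1, Il6ra, Il6st and Lifr, and Osmr is at 0 throughout.

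Lif encodes leukemia inhibitory factor, which keeps mouse stem cells undifferentiated and is induced in injured and inflamed tissue. Lif (ENSMUSG00000034394, GRCm38 chromosome 11 from 4257557 to 4272514, plus strand) was counted 419, 358 and 367 times in sgcontrol replicates 1 to 3 and 324, 583 and 573 times in the libraries labelled sgkiaa1522. After TMM scaling these were 23.9, 19.2 and 21.9 CPM against 26.6, 31.7 and 33.6 CPM. The lowest library labelled sgkiaa1522 was above the highest sgcontrol library, so the groups did not overlap, as was so for 30.6% of the 10046 genes in the higher direction, 31.1% in the lower and 61.7% in either. The means were 21.7 ± 2.36 and 30.6 ± 3.63 CPM (SD, n = 3), a 1.41-fold rise with a 95% interval from 1.16 to 1.73. The log2 fold change was 0.50 (SE 0.125, edgeR QL adjusted p = 0.012). An exact two-sided permutation test of the means gave p = 0.1, the smallest that 3 libraries against 3 allow. Leaving out single libraries moved the log2 fold change of Lif to between 0.41 and 0.59 and its edgeR QL adjusted p to between 0.0089 and 0.049.

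Clcf1, the gene of cardiotrophin-like cytokine factor 1, was the most highly expressed ligand gene and was not called. Clcf1 (ENSMUSG00000040663, chromosome 19 from 4214238 to 4223490, plus strand) was counted 810, 1119 and 1183 times in sgcontrol replicates 1 to 3 and 725, 1713 and 869 times in the libraries labelled sgkiaa1522. The CPM were 46.3, 60.1 and 70.6 against 59.5, 93.0 and 50.9. The highest value was that of sgkiaa1522 replicate 2, and the other values of both groups overlapped. The log2 fold change was 0.20 (SE 0.241, edgeR QL adjusted p = 0.50), with a 95% interval of the fold from 0.780 to 1.70. It was -0.095 without sgkiaa1522 replicate 2. A readthrough gene, AC109138.7, shares 8.17% of the exon bases of Clcf1 on the same strand.

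Il11, the gene of interleukin-11, a cytokine of fibrosis and epithelial repair, was low in every library. Il11 (ENSMUSG00000004371, chromosome 7 from 4772373 to 4782859, minus strand) was counted 7, 10 and 12 times in sgcontrol replicates 1 to 3 and 18, 19 and 15 times in the libraries labelled sgkiaa1522. Its means were 0.551 ± 0.159 and 1.13 ± 0.310 CPM (SD, n = 3), without overlap between the groups, as was so for 27.1% of the 14301 genes in the higher direction, 28.4% in the lower and 55.5% in either. The log2 fold change was 1.01 (SE 0.372, edgeR QL adjusted p = 0.055), so Il11 missed the threshold, and its 95% interval of the fold ran from 1.12 to 3.64. In edgeR's likelihood ratio test its adjusted p was 0.026.

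Il6, the gene of interleukin-6 and an established NFκB target, was near the floor. Il6 (ENSMUSG00000025746, chromosome 5 from 30013114 to 30019981, plus strand) was counted 7, 9 and 3 times in sgcontrol replicates 1 to 3 and 1, 4 and 1 times in the libraries labelled sgkiaa1522, in all 19 against 6. The groups overlapped, with sgkiaa1522 replicate 2 above sgcontrol replicate 3. Scaled by library totals, the summed counts were 2.88 times as high in the sgcontrol libraries, with an exact Clopper-Pearson interval from 1.11 to 8.82 that covers counting error only. The fit across libraries gave a log2 fold change of -1.46 (SE 0.691, edgeR QL adjusted p = 0.12), and a fall of Il6 was thus not larger than the spread between libraries at this depth. It was -2.26 without sgkiaa1522 replicate 2 and lay between -2.26 and -1.11 over the libraries left out singly.

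**Figure D3:**
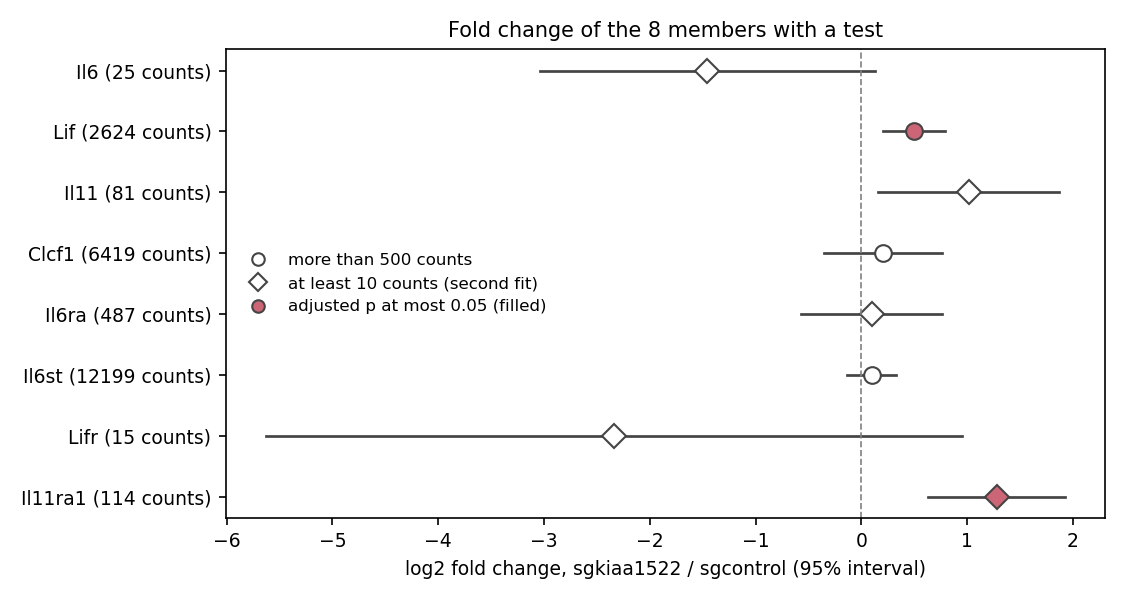
Log2 fold change (sgkiaa1522/sgcontrol) of the 8 members with a test, with 95% intervals from edgeR's quasi-likelihood fit. Circles are members with more than 500 counts, diamonds those tested in the second fit, and filled symbols, Lif and Il11ra1, have an adjusted p of at most 0.05.

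The bases upstream of the ligand genes are shown because 3 of them hold the same short motif, and those of Il6st because gp130 was the most highly expressed receptor gene. Sequences were taken from the RefSeq promoter table for GRCm38.p6, which held windows for 8 of the 9 members (Clcf1 has no entry), and are the 250 bases before an annotated start, 5′ to 3′ on the gene's strand. Il11 has 2 starts in the table, and the downstream one is shown because it holds the motif, which the upstream window does not. Capitals mark matches to the motifs searched on both strands:
Il6, chr5:30012864-30013113, plus strand: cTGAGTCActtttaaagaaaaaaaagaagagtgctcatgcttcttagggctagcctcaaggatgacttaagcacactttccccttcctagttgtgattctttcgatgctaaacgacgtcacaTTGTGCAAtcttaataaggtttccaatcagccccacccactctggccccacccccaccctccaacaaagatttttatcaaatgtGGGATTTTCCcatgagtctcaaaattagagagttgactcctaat
Lif, chr11:4257318-4257567, plus strand: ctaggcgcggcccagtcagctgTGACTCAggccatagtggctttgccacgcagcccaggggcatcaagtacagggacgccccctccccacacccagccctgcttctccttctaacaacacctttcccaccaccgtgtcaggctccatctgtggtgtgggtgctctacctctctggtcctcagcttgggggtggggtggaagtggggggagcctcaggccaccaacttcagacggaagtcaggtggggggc
Il11, chr7:4778142-4778391, minus strand: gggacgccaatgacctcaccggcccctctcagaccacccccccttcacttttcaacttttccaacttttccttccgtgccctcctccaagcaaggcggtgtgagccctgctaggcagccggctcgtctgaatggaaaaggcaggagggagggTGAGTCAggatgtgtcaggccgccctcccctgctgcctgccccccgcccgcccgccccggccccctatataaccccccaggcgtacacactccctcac
Il6st, chr13:112463820-112464069, plus strand: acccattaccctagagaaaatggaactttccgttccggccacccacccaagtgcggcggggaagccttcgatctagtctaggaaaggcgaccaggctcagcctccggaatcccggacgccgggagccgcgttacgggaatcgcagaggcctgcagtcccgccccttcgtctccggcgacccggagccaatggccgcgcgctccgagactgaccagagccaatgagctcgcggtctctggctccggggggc

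The AP-1 motif, TGANTCA, was found at -249 to -243 from the start of Il6, at -228 to -222 from that of Lif and at -98 to -92 from the downstream start of Il11. It was found in 6.75% of the 32817 promoter windows of the same length. The NFκB motif was matched once among the members, at -44 to -35 of Il6, and 3.90% of all windows held it. The C/EBP motif, TTGCNNAA, was matched at -128 to -121 of Il6 on the opposite strand (9.57% of all windows). CACGTG was matched at -24 to -19 of Il6ra (6.02%). The searched letters of the other motifs, TTCNNNGAA for STAT (7.01% of all windows), TGACGTCA for CRE (1.55%) and TATAAA (12.4%), were not in these members' windows. The window of Il6st held 26 CG pairs, that of Il6 held 3 and that of Lif held 6, and the median of all windows was 6. A match is a match of letters, with no measure of binding.

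Il6st was the most highly expressed receptor gene of the family and was not called. Il6st (ENSMUSG00000021756, chromosome 13 from 112464070 to 112510086, plus strand) was counted 2126, 2243 and 1811 times in sgcontrol replicates 1 to 3 and 1357, 2246 and 2416 times in the libraries labelled sgkiaa1522. The CPM were 121, 120 and 108 against 111, 122 and 142, and the groups overlapped. The log2 fold change was 0.10 (SE 0.0990, edgeR QL adjusted p = 0.42), and its 95% interval of the fold, from 0.913 to 1.26, was the narrowest of the 8 members tested.

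Il6ra encodes the IL-6 receptor chain that gives a cell its own response to IL-6. Il6ra (ENSMUSG00000027947, chromosome 3 from 89864059 to 89913196, minus strand) was counted 99, 49 and 100 times in sgcontrol replicates 1 to 3 and 64, 80 and 95 times in the libraries labelled sgkiaa1522, in all 487. Its means were 4.75 ± 1.84 and 5.05 ± 0.635 CPM (SD, n = 3), and the groups overlapped, with sgcontrol replicate 2 lowest at 2.63 CPM. The log2 fold change was 0.098 (SE 0.290, edgeR QL adjusted p = 0.81), with a 95% interval of the fold from 0.675 to 1.70. It was -0.20 without sgcontrol replicate 2. An antisense gene, Gm42809, shares 2.80% of its exon bases.

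Il11ra1, the gene of the IL-11 receptor chain, had the larger of the 2 rises that were called, from low counts. Il11ra1 (ENSMUSG00000073889, chromosome 4 from 41699989 to 41769474, plus strand) was counted 11, 15 and 10 times in sgcontrol replicates 1 to 3 and 22, 26 and 30 times in the libraries labelled sgkiaa1522. The CPM were 0.628, 0.805 and 0.597 against 1.80, 1.41 and 1.76. The groups thus did not overlap, as was so for 27.1% of the 14301 genes in the higher direction, 28.4% in the lower and 55.5% in either. The rise was 2.43-fold with a 95% interval from 1.55 to 3.79, a log2 fold change of 1.28 (SE 0.281, edgeR QL adjusted p = 0.0068). Leaving out single libraries moved it to between 1.19 and 1.43, with edgeR QL adjusted p from 0.014 to 0.027. Il11ra1 has near-identical copies on the same chromosome, and 29.1% of its transcript windows of 100 bases were also in transcripts of Il11ra2 or Gm13305, which were listed at 0. Fragments within those windows map to more than 1 place and are not uniquely mapped, so the level of Il11ra1 is uncertain.

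The signal-transducing partners of LIF and oncostatin M were counted at or near 0. Lifr (ENSMUSG00000054263, chromosome 15 from 7090614 to 7197489, plus strand) was counted 9, 0 and 4 times in sgcontrol replicates 1 to 3 and 2, 0 and 0 times in the libraries labelled sgkiaa1522, in all 13 against 2. The ratio of the sums, sgcontrol over sgkiaa1522, was 5.92 with an exact Clopper-Pearson interval from 1.34 to 54.0 that covers counting error only. Of the 13 counts, 9 came from sgcontrol replicate 1. Without that library Lifr fell under the filter of 10 counts and had no test. The fitted log2 fold change of Lifr was -2.34, a value that depends on the prior count, and lay between -5.16 without sgkiaa1522 replicate 1 and -1.72 over the other libraries left out singly. Since sgcontrol replicate 2 had no count, the groups overlapped (edgeR QL adjusted p = 0.22). Osmr (ENSMUSG00000022146, chromosome 15 from 6813577 to 6874969, minus strand) had 0 counts in every library, which allows up to 3 counts in each. Whether Osmr is listed at 0 because of the cells or of the counting cannot be told apart from these files. Rictor, which lies 13176 bases from Osmr on the same chromosome, had between 801 and 1950 counts, and no 100-base window of Osmr or Lifr was in a transcript of another gene. Of the chains needed by Lif and Clcf1, the ligands read at the highest levels here, Il6st thus had at least 1357 counts in each library, Lifr at 9 or fewer, and Cntfr, the CNTF receptor gene, at 0.

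The genes most like the leading ligand and receptor in their values were sought over the 6 libraries, by Pearson's r of log2 CPM, as a description. Those most like Clcf1 were Rpap2 (r = 0.986), Pinx1 (0.982) and Kdelr1 (0.973). For Il6st they were Usp30 (r = 0.969), Amd-ps1 (0.957) and Aak1 (0.950). None of these 6 genes was called between the groups.

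The other ligand genes of the family were low or had no count. Of 9 such genes, Ctf2 and Il31 had no count, Osm, Il27, Ebi3 and Il12a had between 1 and 9 over all libraries, and Cntf and Ctf1 were among those tested in the second fit. Cntf, the gene of ciliary neurotrophic factor, was at 0.475 ± 0.0977 and 2.11 ± 0.197 CPM (SD, n = 3), which is a log2 fold change of 2.16 (SE 0.283, edgeR QL adjusted p = 5.6e-04). Cntf shares 78.9% of its exon bases with Zfp91 on the same strand, which had between 3271 and 4984 counts, so its counts are uncertain. Ctf1, the gene of cardiotrophin 1, had -0.032 (edgeR QL adjusted p = 0.94).

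Of 8 other receptor genes of the gp130 type, Cntfr, Il31ra, Il11ra2 and Il12rb2 had no count, Csf3r had between 1 and 9, and the 3 tested in the second fit were higher, where 22.3% of all genes were. Il12rb1, a receptor chain of IL-12 and IL-23, was counted 6, 5 and 7 times in sgcontrol replicates 1 to 3 and 37, 52 and 50 times in the libraries labelled sgkiaa1522, a log2 fold change of 3.08 (SE 0.269, edgeR QL adjusted p = 8.4e-05). Il27ra, the IL-27 receptor chain, had 3, 0 and 3 against 5, 15 and 14 counts, at least 4.0-fold higher when each sgcontrol library is set to the floor of 3 counts (edgeR QL adjusted p = 0.020, and 0.060 without sgkiaa1522 replicate 2 or 0.059 without replicate 3). It passed the filter through the group in which it was high. Lepr, the leptin receptor gene, had a log2 fold change of 1.12 (SE 0.354, edgeR QL adjusted p = 0.032, and between 0.028 and 0.093 with each library left out).

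Of 14 genes that carry the signal onward, 12 had more than 500 counts and were tested in the first fit, as for the lists that follow, and of these 3 were higher, 3 lower and 6 not called, with a median log2 fold change of 0.066 against -0.0067 over all tested genes. Of all 10046 genes, 26.3% were higher and 26.3% lower, so these counts were near the background. Jak2 rose from 226 ± 24.3 to 300 ± 19.3 CPM (SD, n = 3), which is a log2 fold change of 0.41 (SE 0.0906, edgeR QL adjusted p = 0.0071). Jak1 had 0.088 (adjusted p = 0.35), Tyk2 0.10 (adjusted p = 0.30) and Stat3, the main transcription factor of the pathway, 0.19 (SE 0.0862, edgeR QL adjusted p = 0.10). Without sgcontrol replicate 1, Stat3 passed with 0.25 (adjusted p = 0.021) and Jak1 with 0.15 (adjusted p = 0.044). Among the called genes of this list with more than 500 counts, the largest changes were those of Sos1, the gene of an exchange factor that activates RAS, and of Shc1, the gene of an adaptor that links receptors to it. Sos1 rose by 0.93 (SE 0.105, adjusted p = 3.7e-04) and Shc1 fell by 0.91 (SE 0.0597, edgeR QL adjusted p = 5.0e-05).

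Of 12 inhibitors and receptor sheddases, 10 were tested, 4 were higher, 1 was lower and 5 were not called (median log2 fold change 0.0069), where 52.5% of all genes were called in either direction. Socs3, which STAT3 induces and which binds gp130, was at 37.6 ± 2.01 and 38.9 ± 1.38 CPM (SD, n = 3), which is a log2 fold change of 0.051 (SE 0.0791, edgeR QL adjusted p = 0.61). Adam10 and Adam17 encode proteases that can release the IL-6 receptor chain from the cell surface. Adam10 was counted 8706, 3258 and 6713 times in sgcontrol replicates 1 to 3 and 1641, 2667 and 2368 times in the libraries labelled sgkiaa1522, a log2 fold change of -1.36 (SE 0.328, edgeR QL adjusted p = 0.010). It lay between -1.70 and -1.05 with each library left out, with adjusted p up to 0.037. Adam17 had -0.14 (adjusted p = 0.23), and Socs7 rose by 0.58 (SE 0.0948, edgeR QL adjusted p = 0.0018).

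**Figure D4:**
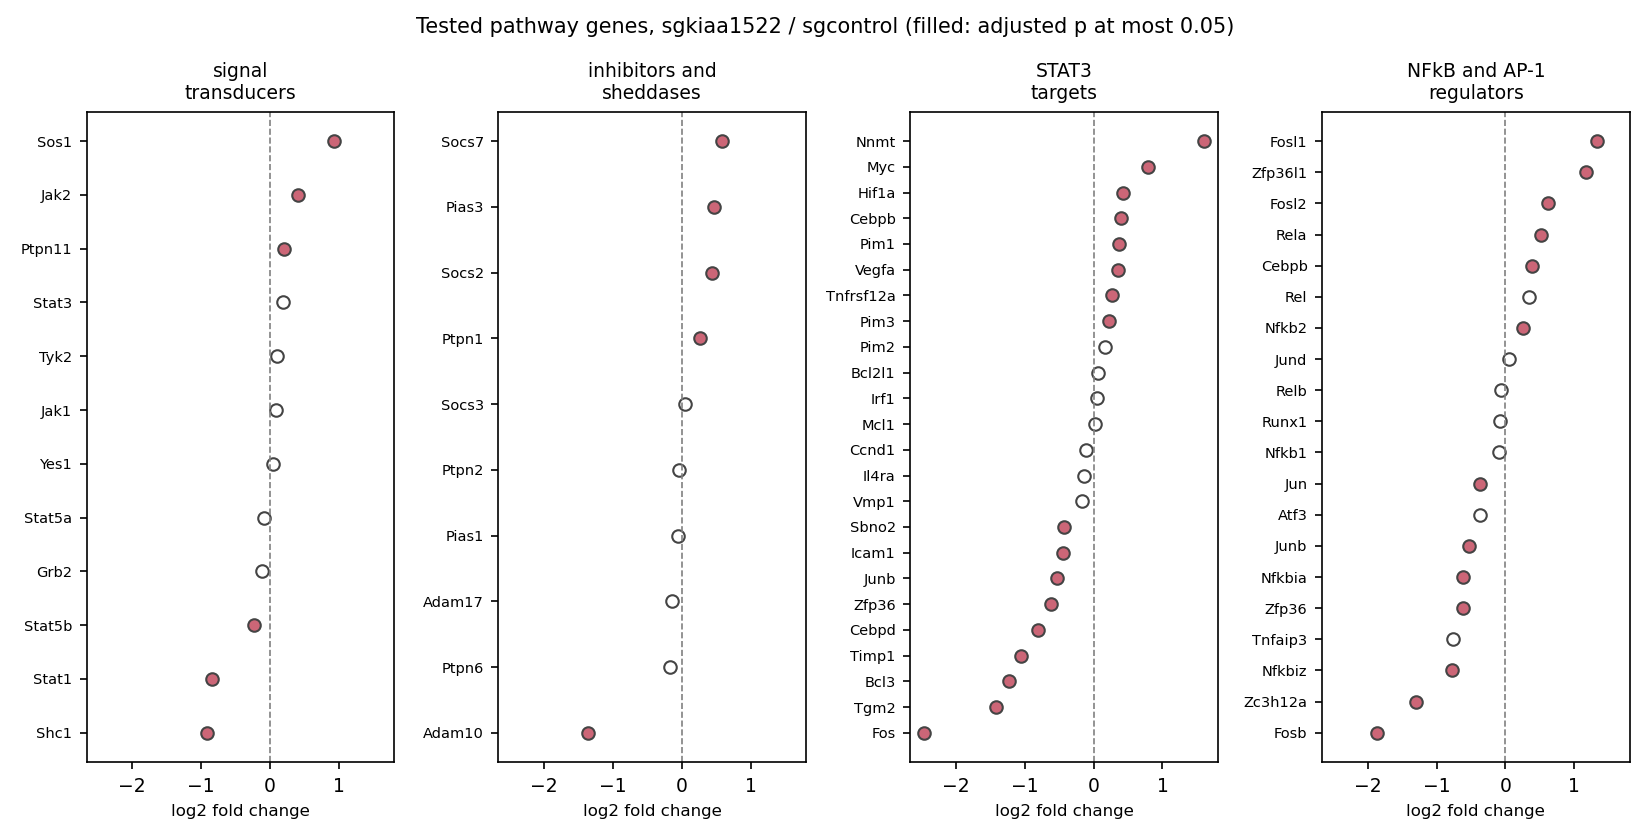
Log2 fold change (sgkiaa1522/sgcontrol) of every gene of the 4 pathway lists with more than 500 counts, ordered within each list, with filled symbols for an adjusted p of at most 0.05. Each list has filled symbols on both sides of 0, with Fos lowest and Nnmt highest among the STAT3 targets plotted.

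Of 35 STAT3 target genes, 24 were tested, of which 9 were lower, 8 higher and 7 not called, with a median log2 fold change of -0.050. Over all genes 26.3% were lower and 26.3% higher, so calls in both directions were also the background. Fos, which many growth signals besides STAT3 induce, went down from 282 ± 6.09 to 51.4 ± 10.2 CPM (SD, n = 3), which is a log2 fold change of -2.46 (SE 0.137, edgeR QL adjusted p = 2.7e-05). Nnmt, the gene of nicotinamide N-methyltransferase, went up from 3.34 ± 1.17 to 10.2 ± 0.712 CPM (SD, n = 3), which is a log2 fold change of 1.60 (SE 0.247, edgeR QL adjusted p = 0.0014). It had 35, 74 and 68 against 123, 201 and 162 counts and passed the filter through the group in which it was high. Without sgkiaa1522 replicate 2 it fell under that filter. In the second fit Nnmt had 1.61 (edgeR QL adjusted p = 0.0011). The liver acute-phase genes Fga, Fgb and Fgg had no count. Other acute-phase genes of this list, Lbp, Hp, Saa3 and Lcn2, had at most 161 counts over the 6 libraries. In the second fit Lbp had -2.50 (edgeR QL adjusted p = 0.0079) and Hp -1.98 (adjusted p = 0.047), where 22.4% of all genes were lower. Saa3 and Lcn2 were not called.

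The 20 genes listed as upstream NFκB and AP-1 regulators of these cytokines were all tested, and 7 were lower, 6 higher and 7 not called (median log2 fold change -0.084), where 26.3% of all genes were lower and 26.3% higher. Fos, an AP-1 subunit too, is not among these 20 and was given with the STAT3 targets. Fosb, an AP-1 subunit, fell by 1.86 on the log2 scale (SE 0.145, edgeR QL adjusted p = 9.0e-05). Fosl1, another AP-1 subunit, rose by 1.33 (SE 0.112, edgeR QL adjusted p = 1.1e-04). Fosl1 shares 57.2% of its exon bases with Ccdc85b on the opposite strand, and whether the counting used strand was not given in the sources used here.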

How the data were processed

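Total RNA of 6 libraries was sequenced. Per the study's methods, the authors trimmed adaptors and removed rRNA reads with Seqtk, mapped reads to GRCm38 with Hisat2 (version 2.0.4) and counted uniquely mapped fragments per gene with Stringtie (version 1.3.0). The deposited counts are whole numbers without normalization. The annotation release was not given in the sources used here.

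Counts were tested with edgeR 4.0.16 in R 4.3.3: the quasi-likelihood test, TMM factors and Benjamini-Hochberg adjustment over all genes fitted. The first fit held the 10046 genes with more than 500 counts in all, as in the study's methods, and a second fit the 14301 genes with at least 10, for members below that filter. The call was an adjusted p of at most 0.05. The standard error is the log2 fold change over the root of the test's F. TPM used exon lengths of GENCODE M21, which matched 34344 of 34745 genes. On simulated counts of 10046 genes with 200 changed, the test recovered 200 and called 15 others. The simulated spread between libraries, as a coefficient of variation, was 0.127. Far fewer genes were changed there than the 52.5% called in the first fit. Recovery of changes as small as that of Lif was not tested. The low counts of the second fit, in which Il11ra1 was called, were not simulated. Libraries within a group differed by a chi-square of at least 10.1 per degree of freedom, so none repeated another.

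Members, gene lists and rules for named genes were chosen with earlier results of these data known. All members were named, and of each list the pair of called genes with the largest changes, fixed partners and the genes most like Clcf1 and Il6st. Zfp91, Ccdc85b, Rictor, acute-phase genes and marker genes were named after their values were seen. A gene of the family lists is not reported here. Alternatives were edgeR's likelihood ratio test, DESeq2 1.42.0, other scalings and filters, a replicate block and each library left out.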

Additional observations from a re-analysis of the deposited data

How the results depend on the processing

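The calls of Lif and Il11ra1 kept their direction and their side of the threshold under every alternative run, other than the added fold limit given here, which Lif did not reach. For Il11, edgeR's likelihood ratio test gave a log2 fold change of 1.00 (adjusted p = 0.026), past the threshold, and its adjusted p reached 0.14 over all alternatives. Sign changes were found for Clcf1 (-0.095 without sgkiaa1522 replicate 2, range -0.095 to 0.37 with each library left out), Il6ra (-0.20 without sgcontrol replicate 2, range -0.20 to 0.29) and Ctf1 (0.011 with the replicate block, and -0.27 to 0.18 with each library left out). Their cause was not tested. When calls also needed a log2 change of 1 or more in either direction, 436 genes were lower, 275 higher and 0 of the 3 members past the study's filter were higher. With the mean transcript length, TPM was 1.12 for Il6ra, 58.0 for Il6st and 1.23 for Il11ra1, since the lengths differ. Lepr lost the threshold in DESeq2's Wald test (adjusted p = 0.11) and with the replicate block.

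The replicate numbers are shared between the groups, but same-numbered libraries did not deviate together (correlations -0.21, -0.051 and -0.17). Whether they share a culture or a preparation was not given in the sources used here. With the replicate block, 2111 genes were lower and 2109 higher, Lif had 0.50 (edgeR QL adjusted p = 0.037) and Il11ra1 1.28 (adjusted p = 0.024). Counts of at most 30 per library limit what can be said of Il6, Il11, Il11ra1 and Lifr.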
